A study of Mus musculus with 12 samples.

Results

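The collagen chain genes are the 44 genes of the deposited table whose symbols have the form Col, a type number, a and a chain number, of 32544 genes in all. They were chosen by name alone and grouped into 9 classes by the way their products assemble. The RNA came from 3T3 cells, a mouse fibroblast line, in 4 groups of 3 libraries. Untreated cells received no vesicles. The other groups were given extracellular vesicles (EVs), small membrane particles that cells release, for 24 h. The vesicles came from the human breast cancer line MDA-MB-468, and the groups differed in the donor cells: control cells (shCon EV), cells with CRIPTO knocked down (shCr EV) or cells that overexpress CRIPTO (CrOE EV). CRIPTO is a membrane-anchored protein that acts with receptors of the TGF-beta family. Every group used the same recipient line, and the EV dose is not given in the sources used here. The knockdown and the overexpression lie in the human donor cells and have no check in these mouse libraries. By its name shCon is the control of the knockdown, and no group here is a separate control of the overexpression. In comparisons with CrOE EV cells, CRIPTO and the means of overexpressing it cannot be told apart. The libraries named CrOE here were matched to their columns by elimination, because those columns carry the name of the protein alone.

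Collagens are secreted proteins built from 3 chains wound into a triple helix. Fibrillar collagens (types I, II, III, V, XI, XXIV and XXVII) form the banded fibrils of connective tissue, with type I the bulk of the fibril and types V and XI in its core. Type IV forms the sheet of basement membranes, type VI forms beaded microfilaments around cells, and the FACIT collagens sit on the surface of fibrils. Fibroblasts make most of the fibrillar collagen of a tissue, and their collagen genes are widely used as readouts of fibroblast activation. A chain is hydroxylated and folded in the endoplasmic reticulum, exported, trimmed of its propeptides outside the cell and cross-linked by lysyl oxidases.

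Library totals lay between 25960054 and 37774020 estimated counts. Levels are given as CPM, each library's counts scaled to a common total. A call is an adjusted p under 0.05, by Benjamini-Hochberg over the 14279 genes tested, in the quasi-likelihood test of edgeR, and log2 fold changes are the group named before "against" minus the other. All 10 genes of a fibroblast marker list, which includes Col1a1, Col1a2 and Col3a1, were detected in every group. Their summed level was 19252 to 20746 CPM in untreated, 24431 to 24766 in shCon EV, 15102 to 17255 in shCr EV and 8470.0 to 8847 in CrOE EV libraries. Among markers of other cell types, Epcam (epithelial), Cidec and Lep (adipocyte) had no counts in any library. The summed levels of the epithelial, endothelial, blood and adipocyte lists stayed at or below 7.78 CPM. The chondrocyte list, mostly Sox9, was at 41.2 to 45.5 CPM in untreated, 46.6 to 49.3 in shCon EV, 36.4 to 50.1 in shCr EV and 20.6 to 24.8 in CrOE EV libraries, where it was lowest like the collagen share below, and its part in the collagen values was not tested. Mitochondrially encoded genes held from 0.495% to 1.70% of counts and differed within groups, with 0.495% in untreated replicate 1 against 1.64% in replicate 2 and 0.622% in shCr EV replicate 1 against 1.44% and 1.70% in the other shCr EV libraries. The labels do not say whether replicates are separate cultures, so p-values measure the spread between these libraries, which may be technical.

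Of the 44 collagen genes, 36 passed the filter on low counts, which a gene can pass through a single group, so the counts of calls below describe these 36 only. A scarce member that passed through the group where it was highest is favoured for a call against the others. This may hold for Col2a1, Col8a2 and Col26a1, which were highest after shCon EVs. The untested members were Col6a6, with at most 22 counts in a library, Col4a3 (13), Col15a1 (11), Col25a1 (7), Col19a1 (3), Col9a2 (2), Col9a1 (1) and Col13a1 (0). The family as a whole was lowest after CrOE EVs. It took 1.74% ± 0.0701 of all counts in untreated cells (SD, n = 3), 2.00% ± 0.0225 in shCon EV, 1.36% ± 0.132 in shCr EV and 0.725% ± 0.0172 in CrOE EV cells. The libraries of the 4 groups did not overlap in this share. Whether a cell held less collagen RNA or fewer cells made it cannot be told apart in bulk RNA.

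After CrOE EVs, 27 of the 36 tested members differed from untreated cells, 23 of them lower and 4 higher, where 73.7% of all tested genes differed (37% lower and 36.7% higher). The median log2 fold change of the members was -1.48, beside 0.01 over all tested genes. The scaling of the libraries largely sets the latter, and the log2 fold changes of all tested genes had an SD of 1.45. After shCon EVs, 14 members differed from untreated cells (9 higher and 5 lower), beside 38.1% of all genes (18% higher and 20.2% lower). The share called in either direction was near that over all genes here and after CrOE EVs. After shCr EVs, 12 members differed (3 higher and 9 lower), beside 37.3% of all genes (18.4% higher and 18.8% lower), again near it. The median log2 fold change was 0.19 after shCon EVs and -0.13 after shCr EVs. These 3 comparisons share the untreated libraries.

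Between the EV groups, 33 members differed in CrOE EV against shCon EV cells (4 higher and 29 lower), where 72.6% of all genes differed (36.5% higher and 36.1% lower). In CrOE EV against shCr EV cells, 30 members differed (4 higher and 26 lower), where 73.9% of all genes differed (36.9% higher and 37% lower). Knockdown against control donor cells gave 9 calls, 2 higher and 7 lower after shCr EVs, where 8.73% of all genes differed (5.22% higher and 3.51% lower). An F-test among the 4 groups called 32 members, where 81.3% of all genes were called. Col2a1, Col4a4, Col7a1 and Col22a1 were the members without that call.

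**Figure D1:**
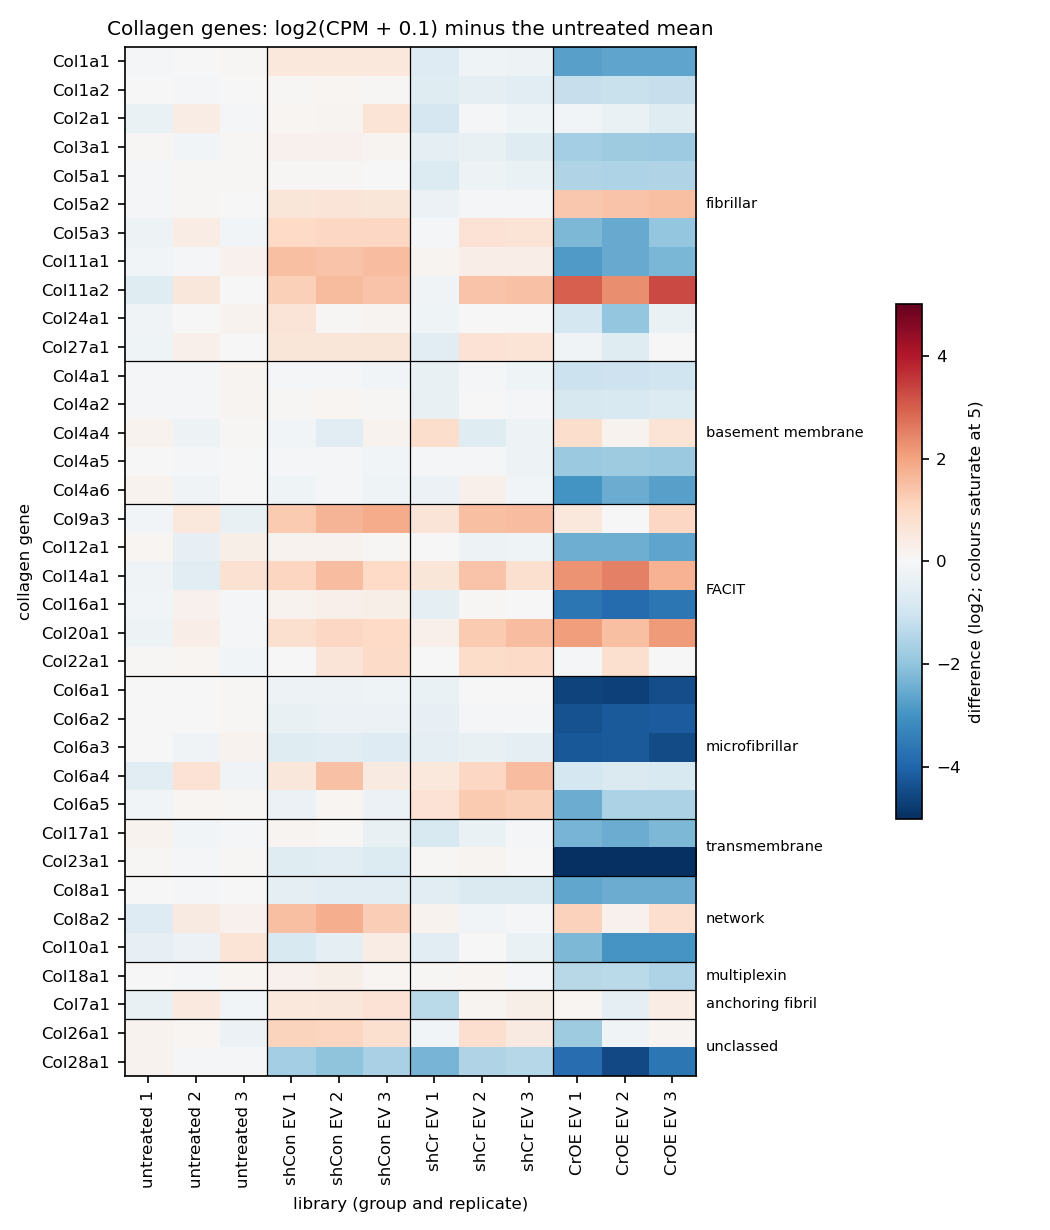
Each cell is 1 tested collagen gene (row, ordered by class) in 1 library (column), coloured by log2(CPM + 0.1) minus the mean of the 3 untreated libraries, red above it and blue below. The CrOE EV columns are blue for most rows, deepest for Col23a1 and the type VI genes Col6a1, Col6a2 and Col6a3. They are red for Col5a2, Col11a2, Col14a1 and Col20a1, the members called higher than in untreated cells. Some scarce members without that call, such as Col8a2, also averaged above the untreated libraries. Colours saturate at a difference of 5.

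Type I collagen is a trimer of 2 alpha 1 chains (Col1a1) and 1 alpha 2 chain (Col1a2). It held the most abundant collagen mRNAs in untreated, shCon EV and shCr EV cells. In CrOE EV cells Col5a2, at a mean of 2343 CPM, lay above Col1a2 (2229) and Col1a1 (721). Col1a1 was at 4309, 4529 and 4766 CPM in untreated libraries, 6590.5, 6565 and 6516 after shCon EVs, 2891, 3908 and 3797 in shCr EV and 694, 732 and 737 in CrOE EV libraries. The 4 groups did not overlap, with shCon EV libraries highest and CrOE EV libraries lowest. Col1a1 rose 1.45-fold after shCon EVs, a log2 fold change of 0.53 (SE 0.09, adjusted p = 0.000548). It was 1.28-fold lower after shCr EVs at -0.36 (SE 0.09, adjusted p = 0.00716), and when these 2 groups were fitted alone the adjusted p was 0.0525. CrOE EVs were followed by a 6.29-fold lower level, at -2.65 (SE 0.10, adjusted p = 4.78e-11).

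Col1a2 was at 4940.5, 4773 and 5045 CPM in untreated libraries and 5181, 5266 and 5162 after shCon EVs. It was at 3217, 3639 and 3431 after shCr EVs and 2201, 2277 and 2209 after CrOE EVs. Untreated and shCon EV libraries lay close together, and the log2 fold change between them was 0.08 (SE 0.05, adjusted p = 0.226), with no call. Col1a2 fell 1.43-fold after shCr EVs, at -0.52 (SE 0.05, adjusted p = 4.4e-06), and 2.21-fold after CrOE EVs, at -1.14 (SE 0.05, adjusted p = 3.18e-10). Per length of transcript, the ratio of Col1a1 to Col1a2 was 0.831 ± 0.0390 in untreated (SD, n = 3), 1.14 ± 0.0116 in shCon EV, 0.926 ± 0.101 in shCr EV and 0.292 ± 0.00854 in CrOE EV cells. The CrOE EV libraries, at 0.284 to 0.301, lay below every other library, whose lowest ratio was 0.787. The shCon EV libraries, at 1.12 to 1.15, lay above every other library. The ratios are given as a description, with no test.

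Type V collagen, which sits in the core of type I fibrils and limits their diameter, divided between its chains. Col5a2 was at 831, 909.5 and 859.9 CPM in untreated libraries, 1331, 1352 and 1327 after shCon EVs, 712, 841 and 812 after shCr EVs and 2230.3, 2331 and 2468 after CrOE EVs. The CrOE EV libraries were highest, then the shCon EV libraries, and untreated and shCr EV libraries overlapped. Col5a2 rose 1.54-fold after shCon EVs, at 0.63 (SE 0.07, adjusted p = 1.06e-05) on the log2 scale, and 2.70-fold after CrOE EVs, at 1.43 (SE 0.07, adjusted p = 4.94e-10). After shCr EVs the log2 fold change was -0.14 (SE 0.07, adjusted p = 0.123), with no call.

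Its partner Col5a1, the chain present in nearly all type V trimers, was at 504, 558 and 569.8 CPM in untreated and 571, 564 and 538 in shCon EV libraries. It was at 336, 461 and 435 after shCr EVs and 191, 189 and 189 after CrOE EVs. Against untreated cells Col5a1 was 2.87-fold lower after CrOE EVs, at -1.52 (SE 0.10, adjusted p = 1.1e-08), and 1.32-fold lower after shCr EVs, at -0.40 (SE 0.09, adjusted p = 0.00445). The per-length ratio of Col5a2 to Col5a1 was 2.02 ± 0.0955 in untreated, 3.04 ± 0.0834 in shCon EV, 2.46 ± 0.204 in shCr EV and 15.7 ± 0.854 in CrOE EV cells (SD, n = 3). Col5a1 shares 2.5% of its annotated exon length with antisense genes, and whether the counting used read strand is not given in the sources used here. Col5a3, a less common type V chain, was at 10.5, 16.4 and 11.5 CPM in untreated, 25.0, 26.1 and 25.5 in shCon EV, 11.9, 21.0 and 20.4 in shCr EV and 2.60, 2.12 and 3.23 in CrOE EV libraries, a log2 fold change of 1.00 (SE 0.21, adjusted p = 0.00211) after shCon EVs and -2.27 (SE 0.24, adjusted p = 2.05e-06) after CrOE EVs. After shCr EVs it was at 0.48 (SE 0.21, adjusted p = 0.0889), without a call, and leaving out shCr EV replicate 1 (adjusted p = 0.00245) or untreated replicate 2 (0.0221) gave one.

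Col3a1, the chain of the type III homotrimer, lies next to Col5a2 on chromosome 1 with 0 protein-coding genes between them, and was followed for that reason after its values were seen. It was at 1202, 1060.2 and 1200.2 CPM in untreated, 1320.2, 1322 and 1272 in shCon EV, 834, 901 and 757 in shCr EV and 354, 334 and 327 in CrOE EV libraries. The CrOE EV libraries were the lowest, while those of its neighbour Col5a2 were the highest. Col3a1 fell 3.41-fold after CrOE EVs, at -1.77 (SE 0.07, adjusted p = 1.31e-10), and 1.39-fold after shCr EVs, at -0.47 (SE 0.07, adjusted p = 0.000157). After shCon EVs it was at 0.18 (SE 0.07, adjusted p = 0.0627), without a call. It was called higher by DESeq2 (adjusted p = 0.0431), with these groups fitted alone (0.0241) and with any shCr EV library left out (0.0380 to 0.0461).

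Type XI collagen, a minor fibrillar type best known from cartilage, also divided between its chains. Col11a1 was at 7.36, 7.66 and 9.42 CPM in untreated, 23.0, 21.9 and 23.8 in shCon EV, 9.02, 10.1 and 10.2 in shCr EV and 1.05, 1.34 and 1.57 in CrOE EV libraries. It rose 2.81-fold after shCon EVs, at 1.49 (SE 0.11, adjusted p = 5.41e-07), and fell 6.13-fold after CrOE EVs, at -2.62 (SE 0.14, adjusted p = 2.37e-09). After shCr EVs it was at 0.27 (SE 0.11, adjusted p = 0.0869), without a call. Leaving out untreated replicate 3 gave an adjusted p of 0.0275, and leaving out shCr EV replicate 1 gave 0.0375.

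Col11a2 was at 3.26, 7.62 and 5.19 CPM in untreated, 11.8, 15.2 and 13.8 in shCon EV, 4.44, 13.9 and 14.1 in shCr EV and 40.4, 25.6 and 51.4 in CrOE EV libraries. The CrOE EV libraries were highest and shCr EV replicate 1 lay with the untreated libraries, apart from its replicates. Col11a2 had the largest called rise of the members after CrOE EVs, at 2.87 (SE 0.40, adjusted p = 2.48e-05) against untreated cells, a 7.32-fold higher level. After shCon EVs it was at 1.35 (SE 0.41, adjusted p = 0.02). That call was lost when shCon EV replicate 2 (adjusted p = 0.0611) or untreated replicate 1 (0.0848) or 3 (0.0640) was left out. After shCr EVs it was at 1.03 (SE 0.41, adjusted p = 0.0673), without a call, and leaving out shCr EV replicate 1 gave an adjusted p of 0.00276 and leaving out untreated replicate 2 gave 0.0399. In each group the lowest Col11a2 level fell in the library with the lowest mitochondrial share, and the part of that in these values was not tested.

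The stretch of 250 bases before the start site is shown for 4 members, chosen after their values were seen, whose stretch held no annotated exon. They were Col11a1 and Col11a2, whose levels divided, Col3a1, the neighbour of Col5a2, and Col23a1, with the largest called fall after CrOE EVs. Other members with large falls, such as Col6a1, Col6a2, Col6a3 and Col16a1, had windows that are not shown. Promoter windows were taken from RefSeq for GRCm38.p6, where 35 of the 44 members matched, in 38 windows. Capitals mark matches, on either strand, to the box CCAAT, to the GC box GGGCGG or to the box TATAAA, and no match overlaps another. The sequences run 5′ to 3′ on the gene's strand, which is the plus strand for all 4, and end at the base before the start site.
Col11a1 (chr3:114030290-114030539, plus strand): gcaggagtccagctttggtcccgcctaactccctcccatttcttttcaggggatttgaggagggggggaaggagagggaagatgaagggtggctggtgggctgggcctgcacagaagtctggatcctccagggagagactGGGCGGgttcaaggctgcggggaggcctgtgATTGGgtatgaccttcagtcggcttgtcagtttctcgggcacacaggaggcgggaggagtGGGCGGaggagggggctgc
Col11a2 (chr17:34038888-34039137, plus strand): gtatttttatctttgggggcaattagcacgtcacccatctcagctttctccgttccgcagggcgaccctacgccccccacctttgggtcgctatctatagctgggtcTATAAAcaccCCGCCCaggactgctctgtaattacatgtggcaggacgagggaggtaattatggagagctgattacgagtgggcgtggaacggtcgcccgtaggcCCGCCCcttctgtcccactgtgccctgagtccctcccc
Col3a1 (chr1:45311288-45311537, plus strand): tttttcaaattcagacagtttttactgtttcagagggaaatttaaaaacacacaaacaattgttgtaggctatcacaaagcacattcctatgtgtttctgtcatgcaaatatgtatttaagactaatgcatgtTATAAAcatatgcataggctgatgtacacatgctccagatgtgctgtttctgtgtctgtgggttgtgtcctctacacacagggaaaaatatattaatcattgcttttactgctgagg
Col23a1 (chr11:51289670-51289919, plus strand): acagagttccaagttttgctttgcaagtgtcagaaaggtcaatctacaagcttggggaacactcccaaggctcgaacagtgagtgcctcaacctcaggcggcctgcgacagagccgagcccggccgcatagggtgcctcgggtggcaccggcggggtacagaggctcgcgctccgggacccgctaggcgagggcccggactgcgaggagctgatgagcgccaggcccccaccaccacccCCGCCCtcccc

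The windows of Col11a1 and Col11a2 each held 2 GC boxes. A CCAAT match stood 79 bases before the start site in Col11a1, and a TATAAA match stood 143 bases before it in Col11a2. Col3a1 held a TATAAA match 117 bases before its start and neither other motif, with a GC content of 35.2% beside 66% for Col23a1, which held 1 GC box 11 bases before its start. Of the 38 collagen windows, 13 held CCAAT, 22 held GGGCGG and 5 held TATAAA. Over 32851 RefSeq promoter windows of the same length, 33.8%, 32.7% and 12.4% did. A match is a run of letters in this window and says nothing of the factors that bind there.

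The remaining fibrillar members were scarce. Col27a1 was at 7.80 to 10.7 CPM in untreated, 13.7 to 13.9 in shCon EV, 6.06 to 15.0 in shCr EV and 5.96 to 9.10 in CrOE EV libraries. It was lower in CrOE EV against shCon EV cells, at -0.84 (SE 0.27, adjusted p = 0.0123), and lost that call without CrOE EV replicate 2 (adjusted p = 0.0577). Col24a1, at 0.952 to 1.21 CPM in untreated libraries, was lower after CrOE EVs at -1.02 (SE 0.37, adjusted p = 0.0236). Leaving out untreated replicate 3 (adjusted p = 0.0720) or CrOE EV replicate 1 (0.0533) or 2 (0.0677) ended that call. Col2a1, the cartilage fibril chain, was at 0.176 to 0.685 CPM over the 12 libraries. It was called lower in CrOE EV against shCon EV cells, at -0.83 (SE 0.35, adjusted p = 0.0481). DESeq2 (adjusted p = 0.111), the replicate block (0.0636) and leaving out any CrOE EV library (0.0515 to 0.151) ended that call, among other alternatives. In all, the 11 fibrillar genes gave 2 higher and 7 lower calls after CrOE EVs, 5 higher and 0 lower after shCon EVs, and 0 higher and 4 lower after shCr EVs, each against untreated cells. Over all genes 36.7% were higher and 37% lower after CrOE EVs, 18% and 20.2% after shCon EVs, and 18.4% and 18.8% after shCr EVs.

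**Figure D2:**
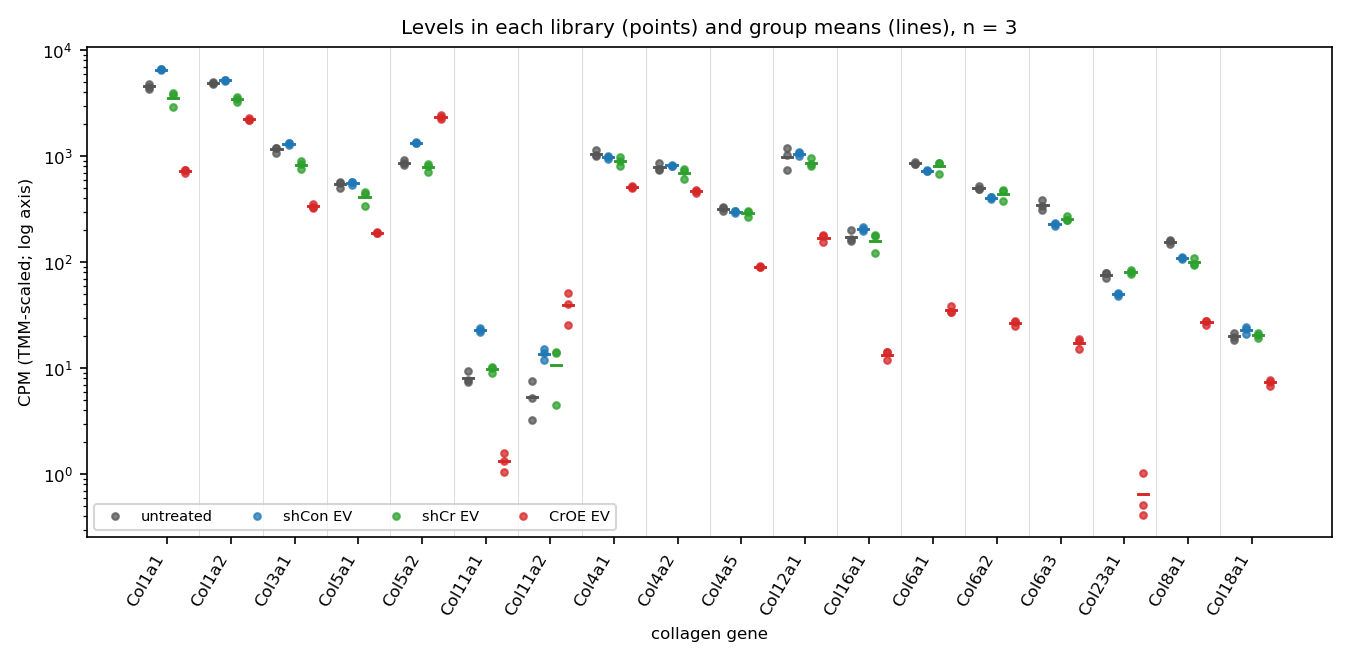
Points are the CPM of 18 collagen genes in each library on a log axis, coloured by group, and short lines are group means (n = 3). The CrOE EV points lie below those of the other groups for every gene shown except Col5a2 and Col11a2, where they lie above.

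Type IV collagen is the network collagen of basement membranes, and its chains are encoded in head-to-head gene pairs. The start sites of Col4a1 and Col4a2 lie 21 bases apart on opposite strands of chromosome 8 in RefSeq's GRCm38.p6, and reads of these genes near the shared start cannot be told apart without strand. Col4a1 was at 1016, 997 and 1142 CPM in untreated, 983, 992 and 946 in shCon EV, 811, 973 and 908 in shCr EV and 504, 513 and 527 in CrOE EV libraries. Col4a2 was at 732, 759 and 861, 813, 830.3 and 805, 602, 762 and 725 and 444, 465 and 482 CPM in the same order of groups. For each gene the CrOE EV libraries lay below all others. Against untreated cells the log2 fold change after CrOE EVs was -1.03 (SE 0.07, adjusted p = 2.37e-08) for Col4a1 and -0.76 (SE 0.08, adjusted p = 2.81e-06) for Col4a2. The per-length ratio of Col4a1 to Col4a2 was 1.31 ± 0.0389 in untreated, 1.16 ± 0.0169 in shCon EV, 1.26 ± 0.0474 in shCr EV and 1.08 ± 0.0217 in CrOE EV cells (SD, n = 3). The CrOE EV libraries lay below all others and the untreated libraries overlapped with those of the shCr EV group.

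Col4a5, a chain of the second type IV network, was at 327, 304 and 328 CPM in untreated, 307, 301 and 292 in shCon EV, 297, 300.1 and 267 in shCr EV and 89.1, 91.9 and 89.1 in CrOE EV libraries. After CrOE EVs it was 3.55-fold below the untreated level, at -1.83 (SE 0.06, adjusted p = 1.12e-11). Its X-linked neighbour Col4a6 was at 5.30 to 6.74 CPM in untreated and 0.666 to 0.989 in CrOE EV libraries, at -2.86 (SE 0.19, adjusted p = 1.62e-08). After shCon EVs Col4a1 was at -0.11 (SE 0.07, adjusted p = 0.236), Col4a2 at 0.06 (SE 0.08, adjusted p = 0.621) and Col4a5 at -0.09 (SE 0.05, adjusted p = 0.211), without a call. After shCr EVs, Col4a1 was at -0.23 (SE 0.07, adjusted p = 0.021) and Col4a5 at -0.15 (SE 0.05, adjusted p = 0.0484). Leaving out untreated replicate 3 ended the call of Col4a1 (adjusted p = 0.0892), as did fitting the 2 groups alone (0.0947). The call of Col4a5 was lost under 12 of the alternatives, at adjusted p from 0.0536 to 0.193. Those included leaving out untreated replicate 1 or 3, shCr EV replicate 3, or any library of the shCon EV or CrOE EV groups. Col4a4 was at 0.128 to 0.539 CPM, with no call in any pair of groups in the model of group means over all libraries. Without shCr EV replicate 1 it was called higher after CrOE EVs, at an adjusted p of 0.0352 against shCon EV and 0.0137 against shCr EV cells. Without the 3 low-mitochondrial libraries it was called higher against shCon EV (0.0189), shCr EV (0.00848) and untreated cells (0.0459).

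Type VI collagen, a beaded microfilament that links cells to the surrounding matrix and is assembled from all of its 3 main chains, was far lower after CrOE EVs. Col6a1 was at 833, 844 and 879.8 CPM in untreated, 716, 719 and 744 in shCon EV, 671, 867 and 868 in shCr EV and 34.0, 33.5 and 38.8 in CrOE EV libraries. Col6a2 was at 493, 490.5 and 528, 390.2, 407 and 409.5, 378, 468 and 480.5 and 24.8, 27.2 and 27.7 CPM in that order. Col6a3, the largest chain, was at 340.3, 307 and 389, 228, 233 and 219, 248, 269 and 249 and 18.2, 18.7 and 15.3 CPM. All 3 chains were more than an order of magnitude lower in CrOE EV libraries than in any other library. Against untreated cells the log2 fold changes were -4.59 (SE 0.10, adjusted p = 8.59e-13) for Col6a1, -4.24 (SE 0.09, adjusted p = 6.15e-13) for Col6a2 and -4.31 (SE 0.10, adjusted p = 1.05e-12) for Col6a3, or 24.0-fold, 18.9-fold and 19.9-fold lower levels.

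After shCon EVs the type VI chains were lower by less. Col6a3 was at -0.61 (SE 0.09, adjusted p = 0.000137) and Col6a2 at -0.32 (SE 0.08, adjusted p = 0.00674), while Col6a1 was at -0.23 (SE 0.09, adjusted p = 0.0582), without a call. Leaving out shCr EV replicate 1, which enters only through the shared spread, gave Col6a1 an adjusted p of 0.00244, and leaving out shCr EV replicate 3 gave 0.0497. DESeq2 (0.0401), the 2 groups fitted alone (0.00115) and the fit without the low-mitochondrial libraries (0.00335) also called it lower. After shCr EVs, Col6a3 fell 1.35-fold at -0.44 (SE 0.09, adjusted p = 0.00151). The minor chain Col6a5 rose from 0.403, 0.495 and 0.478 to 0.811, 1.28 and 1.17 CPM, at 1.24 (SE 0.33, adjusted p = 0.00942). In CrOE EV libraries Col6a5 had 0, 3 and 3 counts, at most the detection floor of 3 counts per library. Its level there was lower by at least 5.16-fold against untreated cells. Col6a4, at 0.0951 to 0.954 CPM, was lower after CrOE EVs than after shCon EVs, at -2.37 (SE 0.56, adjusted p = 0.00183).

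FACIT collagens, which decorate fibrils, moved in both directions. Col12a1, found on type I fibrils, was at 1023, 736 and 1195 CPM in untreated, 1079.8, 1082 and 1001 in shCon EV, 958, 805 and 838 in shCr EV and 177, 179.6 and 155 in CrOE EV libraries. The untreated libraries spread over the range of the shCon EV and shCr EV libraries. Col12a1 fell 5.78-fold after CrOE EVs, at -2.53 (SE 0.14, adjusted p = 3.96e-09) against untreated cells. Col16a1 was at 156, 199.9 and 166 CPM in untreated, 198, 204 and 212 in shCon EV, 122, 179.8 and 175 in shCr EV and 14.2, 11.9 and 14.1 in CrOE EV libraries. It fell 13.0-fold after CrOE EVs, at -3.70 (SE 0.15, adjusted p = 1.45e-10).

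Col20a1, a scarce FACIT chain, was at 2.05, 3.13 and 2.24 CPM in untreated, 4.33, 5.11 and 5.01 in shCon EV, 2.96, 6.25 and 7.34 in shCr EV and 10.7, 7.04 and 10.9 in CrOE EV libraries. It rose against untreated cells in all 3 EV groups, at 0.96 (SE 0.31, adjusted p = 0.0258) after shCon EVs, 1.17 (SE 0.30, adjusted p = 0.00802) after shCr EVs and 1.95 (SE 0.29, adjusted p = 4.96e-05) after CrOE EVs. Leaving out untreated replicate 1 (adjusted p = 0.0956) or 3 (0.0868), or shCon EV replicate 2 (0.0716) or 3 (0.0673), ended its call after shCon EVs. Col14a1, known for regulating fibril growth, was scarce, at 0.183, 0.114 and 0.441 CPM in untreated and 1.43, 1.72 and 0.983 in CrOE EV libraries, at 2.45 (SE 0.42, adjusted p = 0.000158). It was also higher after shCon EVs, at 1.38 (SE 0.47, adjusted p = 0.0339), and lost that call without shCon EV replicate 1 (adjusted p = 0.0536) or 2 (0.123) or untreated replicate 1 (0.119) or 2 (0.106). Col22a1 was at 0.147 to 0.432 CPM, with no call in any pair of groups in the model of group means over all libraries. Without the 3 low-mitochondrial libraries it was called lower in CrOE EV against shCr EV cells (adjusted p = 0.0264).

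Col9a3, a chain of the cartilage FACIT type IX, had the largest called rise in shCon EV and in shCr EV cells among members whose average log2 CPM was 0 or more. It was at 1.39, 2.25 and 1.18 CPM in untreated, 3.97, 5.31 and 5.87 in shCon EV, 2.47, 4.55 and 4.66 in shCr EV and 2.28, 1.51 and 3.29 in CrOE EV libraries, at 1.66 (SE 0.33, adjusted p = 0.00166) after shCon EVs and 1.29 (SE 0.33, adjusted p = 0.00822) after shCr EVs. Of the exon length of Col9a3, 6.07% overlaps the antisense gene Tcfl5, so its reads are uncertain if strand was not used. Its partner chains Col9a1 and Col9a2 had at most 2 counts in any library.

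Among collagens with a transmembrane segment, Col23a1 had the largest called fall after CrOE EVs. It also had the largest called fall after shCon EVs among members whose average log2 CPM was 0 or more. It was at 78.8, 70.4 and 79.1 CPM in untreated, 49.7, 51.3 and 47.7 in shCon EV, 80.0, 83.8 and 77.7 in shCr EV and 0.412, 1.02 and 0.505 in CrOE EV libraries. It was 116-fold lower after CrOE EVs, at -6.86 (SE 0.16, adjusted p = 9.41e-13) against untreated cells, and 1.53-fold lower after shCon EVs, at -0.62 (SE 0.10, adjusted p = 0.000372). The shCr EV and untreated libraries overlapped, at a log2 fold change of 0.08 (SE 0.10, adjusted p = 0.56), without a call. Col17a1, the hemidesmosome collagen of epithelia, was at 3.15, 2.52 and 2.65 CPM in untreated and 0.476, 0.407 and 0.505 in CrOE EV libraries, at -2.57 (SE 0.24, adjusted p = 4.61e-07).

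The short-chain network collagens are type VIII and type X. Col8a1, of the hexagonal lattices below endothelia, was at 160.0, 149.5 and 159 CPM in untreated, 111, 109 and 107 in shCon EV, 109, 95.0 and 94.5 in shCr EV and 25.4, 27.6 and 28.1 in CrOE EV libraries. It was lower than in untreated cells in all 3 EV groups, at -0.52 (SE 0.06, adjusted p = 3.92e-05) after shCon EVs, -0.65 (SE 0.06, adjusted p = 5.28e-06) after shCr EVs and -2.53 (SE 0.07, adjusted p = 3.24e-12) after CrOE EVs. Col8a2, its partner chain, was at 0.0366, 0.191 and 0.147 CPM in untreated and 0.501, 0.664 and 0.396 in shCon EV libraries, a log2 fold change of 2.04 (SE 0.49, adjusted p = 0.0054) on 1, 5 and 4 counts in untreated and 14, 20 and 11 in shCon EV libraries. In CrOE EV against shCon EV cells Col8a2 was called lower, at -0.96 (SE 0.40, adjusted p = 0.0471). DESeq2 (adjusted p = 0.119) and the replicate block (0.0729) ended that call, among other alternatives. After CrOE EVs Col8a2 averaged 0.269 CPM beside 0.125 in untreated cells, at 1.08 (SE 0.53, adjusted p = 0.0833), without a call. Leaving out CrOE EV replicate 2 gave an adjusted p of 0.0326. Col10a1, the chain of hypertrophic cartilage, was at 0.476, 0.534 and 1.14 CPM in untreated libraries and had 2, 0 and 0 counts in CrOE EV libraries, at least 8.06-fold lower. Of its exon length, 0.58% overlaps the antisense gene Nt5dc1.

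Of the other classes, Col18a1, the source of endostatin, was at 19.7, 18.6 and 21.5 CPM in untreated, 23.4, 24.3 and 21.2 in shCon EV, 20.6, 21.3 and 19.3 in shCr EV and 7.45, 7.80 and 6.77 in CrOE EV libraries, at -1.44 (SE 0.09, adjusted p = 6.31e-09) after CrOE EVs. Col28a1 was at 2.49, 2.06 and 2.02 CPM in untreated, 0.608, 0.465 and 0.648 in shCon EV and 0.352, 0.705 and 0.742 in shCr EV libraries, and had 2, 0 and 3 counts in CrOE EV libraries. It was at -1.93 (SE 0.31, adjusted p = 0.000366) after shCon EVs, -1.84 (SE 0.30, adjusted p = 0.000398) after shCr EVs and at least 24.6-fold lower after CrOE EVs. Col26a1, at 0 to 0.644 CPM, was lower in CrOE EV against shCon EV cells, at -1.81 (SE 0.55, adjusted p = 0.0103). Col7a1, the anchoring fibril collagen, was at 11.5, 21.0 and 13.3 CPM in untreated, 21.6, 21.8 and 24.6 in shCon EV, 5.75, 16.3 and 18.2 in shCr EV and 15.7, 10.4 and 19.3 in CrOE EV libraries. It was called in none of the 6 comparisons of group pairs by edgeR. With the compared groups fitted alone it was called higher in shCon EV than in untreated cells (adjusted p = 0.0374) and lower in CrOE EV than in shCon EV cells (0.00449). Leaving out shCr EV replicate 1 did the same, at 0.0467 and 0.0241.

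**Figure D3:**
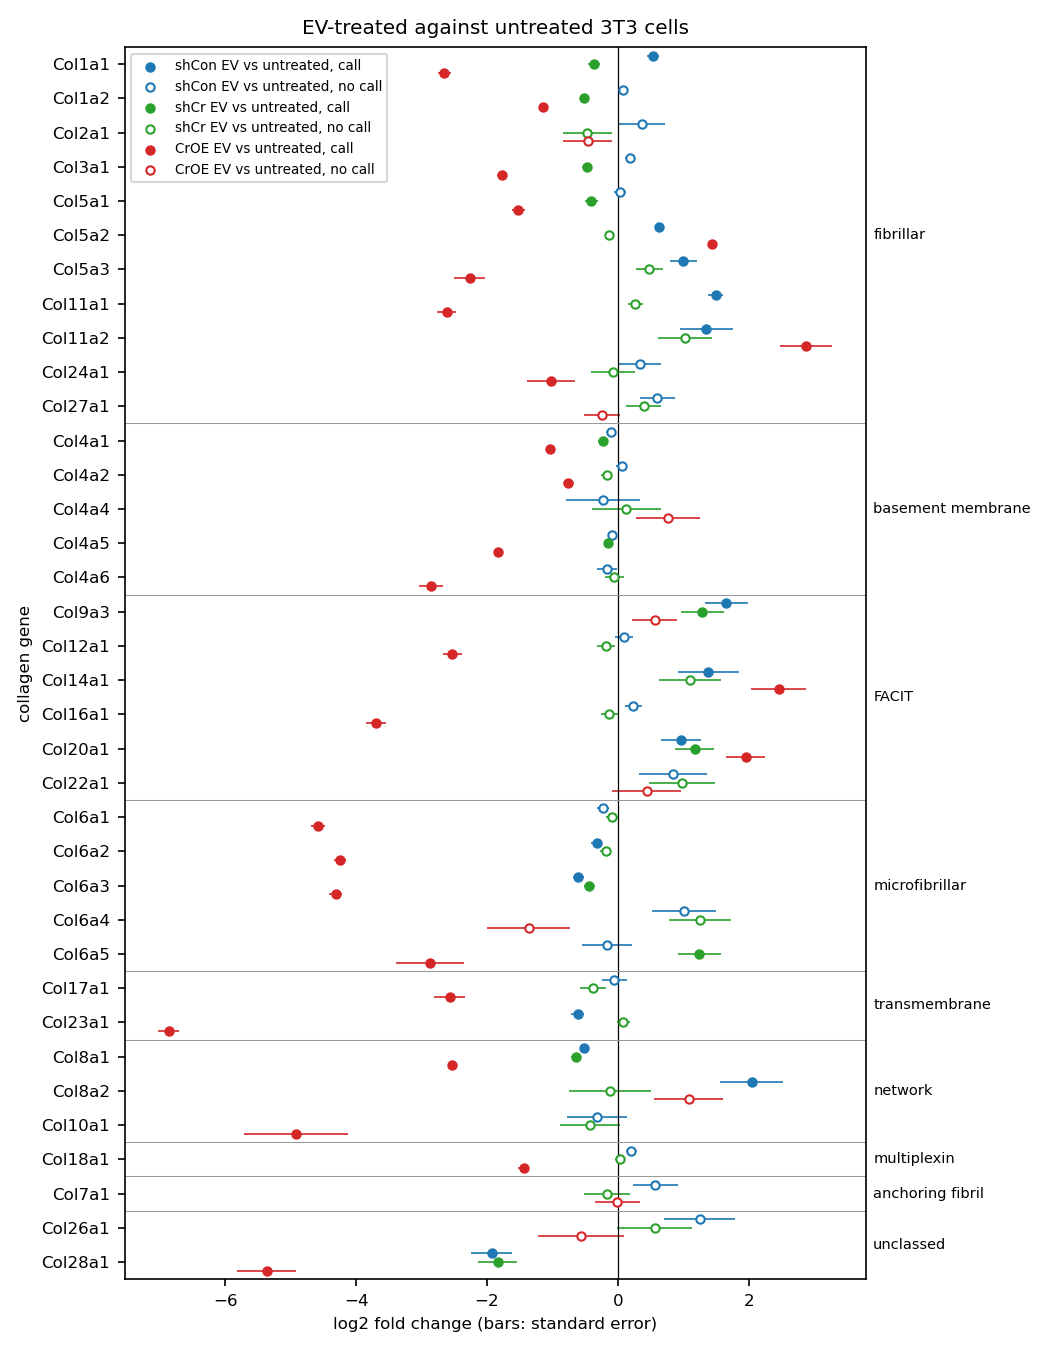
Log2 fold changes of each tested collagen gene (rows, by class) against untreated cells after shCon EVs (blue), shCr EVs (green) and CrOE EVs (red), with bars for the standard error and filled points for calls. The CrOE EV points spread from -6.86 for Col23a1 to 2.87 for Col11a2. Those of Col6a5, Col10a1 and Col28a1 are fitted values for genes at or under the detection floor in CrOE EV libraries.

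The comparison of shCr EV with shCon EV cells asks what knockdown in the donor cells changed. Of the 11 fibrillar collagens, 6 were called lower after shCr EVs and 0 higher, where 3.51% of all genes were called lower and 5.22% higher. Col2a1, Col5a3, Col11a2, Col24a1 and Col27a1 had no call. Col1a1 was at -0.89 (SE 0.09, adjusted p = 8.43e-05), Col1a2 at -0.60 (SE 0.05, adjusted p = 1.81e-05) and Col3a1 at -0.65 (SE 0.07, adjusted p = 0.000122). Col5a2 was at -0.76 (SE 0.07, adjusted p = 2.15e-05), Col5a1 at -0.44 (SE 0.09, adjusted p = 0.0117) and Col11a1 at -1.22 (SE 0.11, adjusted p = 2.49e-05), the largest called fall of the members whose average log2 CPM was 0 or more. The shCr EV libraries of Col11a1, at 9.02 to 10.2 CPM, lay near the untreated range of 7.36 to 9.42, and the shCon EV libraries lay at 21.9 to 23.8. Without shCon EV replicate 2 Col5a1 had an adjusted p of 0.0506, and with the 2 groups fitted alone 0.0774.

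Col23a1 was higher after shCr EVs than after shCon EVs, at 0.70 (SE 0.10, adjusted p = 0.000925), with no overlap of libraries. Col6a5 was higher at 1.41 (SE 0.33, adjusted p = 0.019), with 10, 15 and 10 counts after shCon EVs and 23, 40 and 44 after shCr EVs. Leaving out any shCon EV library, or shCr EV replicate 2 or 3, ended that call, at adjusted p from 0.0506 to 0.0931. Col8a2 was lower at -2.17 (SE 0.47, adjusted p = 0.0134), on 4, 3 and 4 counts after shCr EVs, and leaving out shCon EV replicate 2 (adjusted p = 0.0732) or shCr EV replicate 2 (0.0502) ended that call. It was highest in the shCon EV group and may have passed the filter on low counts through that group alone.

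Libraries did not overlap between shCr EV and shCon EV cells for 17 of the 36 members, where 28% of all genes had no overlap. Leaving out shCr EV replicate 1, the library of low mitochondrial share, gave 12 called members (4 higher and 8 lower). The share of all genes called was not taken in that fit. Col6a1 and Col6a2 were then called higher after shCr EVs, at adjusted p of 0.0139 and 0.0137. In the 13 members with a transcript GC content above 58%, a threshold chosen after the values were seen, the median deviation of that library from its group mean was -0.48 on the log2 scale, beside 0.28 and 0.16 in its replicates. In the 11 members under 52% it was -0.14. The part of GC content or RNA quality in the shCr EV results was not tested.

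**Figure D4:**
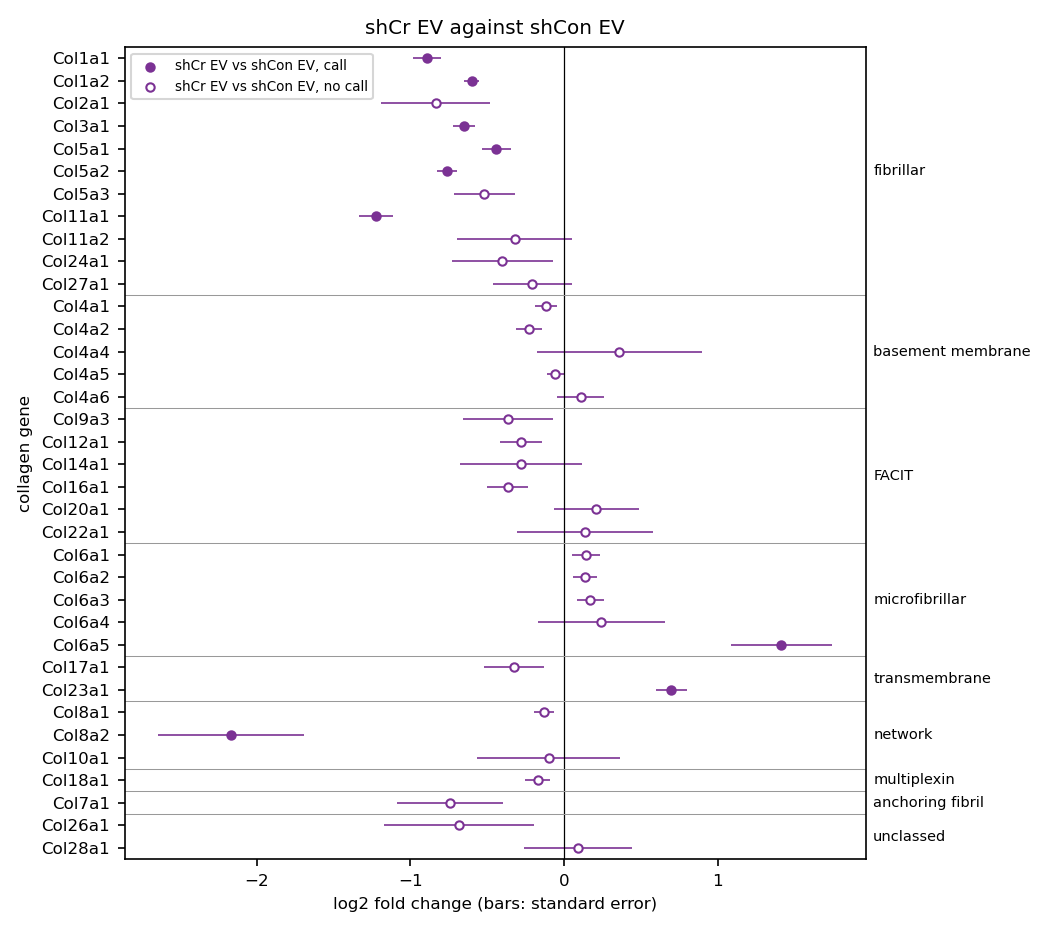
Log2 fold changes of each tested collagen gene in shCr EV against shCon EV cells, with bars for the standard error and filled points for calls. The abundant fibrillar genes lie left of 0 with short bars, Col1a1 at -0.89 and Col11a1 at -1.22, and Col23a1 lies right of 0 at 0.70.

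Against shCon EV cells, CrOE EV cells were lower for all 3 main type VI chains, at -4.36 (SE 0.10, adjusted p = 1.68e-12) for Col6a1, -3.92 (SE 0.09, adjusted p = 1.52e-12) for Col6a2 and -3.71 (SE 0.10, adjusted p = 4.04e-12) for Col6a3. Col1a1 was at -3.19 (SE 0.10, adjusted p = 1.38e-11) and Col11a1 at -4.11 (SE 0.14, adjusted p = 2.57e-11), a 17.2-fold lower level. The 4 members called higher were Col5a2 at 0.81 (SE 0.07, adjusted p = 1.42e-07), Col11a2 at 1.52 (SE 0.36, adjusted p = 0.00208), Col14a1 at 1.07 (SE 0.36, adjusted p = 0.0157) and Col20a1 at 0.98 (SE 0.27, adjusted p = 0.00523). Leaving out CrOE EV replicate 2 (adjusted p = 0.0678) or shCon EV replicate 1 (0.0554) or 3 (0.0587) ended the call of Col14a1. Libraries did not overlap for 35 of the 36 members, where 80.5% of all genes had no overlap.

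Against shCr EV cells, the largest called fall was again Col23a1, at -6.94 (SE 0.16, adjusted p = 9.89e-13), and the largest called rise Col11a2, at 1.84 (SE 0.37, adjusted p = 0.000516). Col5a2 was at 1.57 (SE 0.07, adjusted p = 2.06e-10) and Col1a1 at -2.29 (SE 0.09, adjusted p = 1.66e-10). Col9a3 (adjusted p = 0.0479), Col27a1 (0.0455) and Col24a1 (0.0312) were called lower and Col20a1 (0.0175) higher. Fitting the compared groups alone ended these calls, at adjusted p of 0.0746, 0.11, 0.0729 and 0.053 in that order. Libraries overlapped for Col9a3, Col27a1 and Col20a1. Libraries did not overlap for 28 of the 36 members, where 74% of all genes had no overlap. The numbers without overlap against untreated cells were 21 in the shCon EV group, 12 in the shCr EV group and 28 in the CrOE EV group, where 54.2%, 41.9% and 77.7% of all genes had none.

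The make-up of the collagen mRNA pool, taken as CPM per kilobase of transcript so that genes can be compared, is described here without a test. Col5a2 held 4.45% ± 0.301 of it in untreated cells and 29.7% ± 0.887 after CrOE EVs (SD, n = 3), where it was second to Col1a2. Col1a1 held 26.0% ± 0.755 in untreated, 32.8% ± 0.199 in shCon EV, 25.6% ± 1.82 in shCr EV and 10.2% ± 0.130 in CrOE EV cells. Type VI and its relatives held 11.9% ± 0.0249 in untreated, 8.49% ± 0.198 in shCon EV, 13.6% ± 0.632 in shCr EV and 1.35% ± 0.0398 in CrOE EV cells. The basement membrane class held 11.2% ± 0.340, 9.51% ± 0.109, 12.5% ± 0.213 and 13.7% ± 0.0925 in that order. In untreated cells the highest levels in CPM per kilobase were 919.8 ± 25.6 for Col1a2, 765 ± 38.6 for Col1a1, 208 ± 5.94 for Col6a1 and 207 ± 14.6 for Col3a1, where the SDs of the latter pair overlap. After CrOE EVs they were 417 ± 7.86 for Col1a2, 354 ± 18.0 for Col5a2, 122 ± 4.01 for Col1a1 and 77.8 ± 1.70 for Col4a1.

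**Figure D5:**
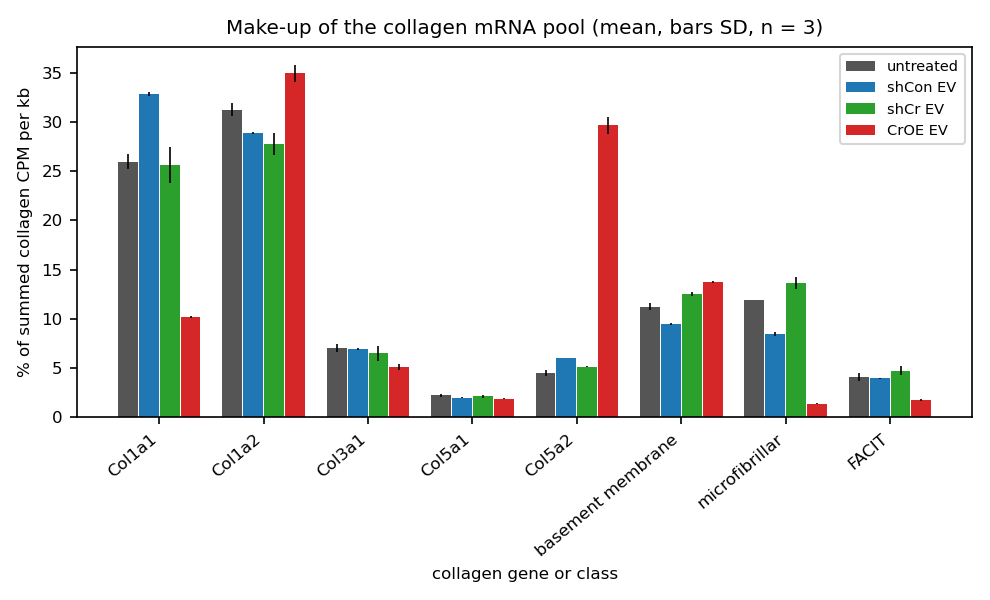
Bars are the mean share of the summed collagen CPM per kilobase held by 5 fibrillar genes and 3 classes in each group, with the SD over 3 libraries as error bars. Col5a2 stands at 29.7% in CrOE EV cells beside 4.45% in untreated cells, and the microfibrillar class at 1.35% beside 11.9%.

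The genes that make, process and read collagen were followed in a list of 52, of which 48 were tested and Colgalt2, Mia2, Tll2 and Pcolce2 were too scarce. After CrOE EVs 11 were higher and 30 lower than in untreated cells, where 36.7% of all genes were higher and 37% lower. The counts by step below stand beside these same shares. In the list for chain hydroxylation and glycosylation, 4 of 14 were higher and 7 lower. Ppib, a prolyl isomerase of the 3-hydroxylation complex, rose at 1.51 (SE 0.08, adjusted p = 1.61e-09), and P4ha3, a prolyl 4-hydroxylase subunit, fell at -2.98 (SE 0.11, adjusted p = 7.44e-11). Of the exon length of Ppib, 24.96% overlaps the antisense gene Snx22, so its reads are uncertain if strand was not used. Antisense genes also overlap Loxl3 (11.62%), Colgalt1 (11.44%), Fkbp10 (6.58%) and Loxl2 (5.57%), named below. Itga10, also named below, shares 33.53% of its exon length with Gm42957 on the same strand. P3h1, the catalytic member of the Ppib complex, was higher at 1.15 (SE 0.05, adjusted p = 1.9e-10) and Crtap, the other member, lower at -1.21 (SE 0.05, adjusted p = 7.7e-11).

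Among 8 tested genes of folding and export, 5 were higher in CrOE EV than in untreated cells and 3 lower. Mia3, a cargo receptor for export of procollagen, rose at 1.12 (SE 0.05, adjusted p = 3.45e-10), and Creb3l1, a transcription factor that activates Col1a1 in bone, fell at -0.84 (SE 0.08, adjusted p = 4.88e-07). After shCon EVs Creb3l1 was higher, at 0.94 (SE 0.08, adjusted p = 9.96e-07). All 6 tested genes for propeptide removal were called lower after CrOE EVs, beside 37% of all genes. Pcolce, an enhancer of the C-propeptide protease, went from 989, 986 and 991 to 118, 125 and 127 CPM, at -3.00 (SE 0.05, adjusted p = 9.91e-14). All 5 lysyl oxidase genes were called lower after CrOE EVs, beside the same 37%, with Loxl3 at -3.11 (SE 0.08, adjusted p = 2.04e-12) the largest fall.

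Of 9 collagen receptors, 1 was higher and 5 lower after CrOE EVs, a share called of 66.7% beside 73.7% of all genes. Ddr2, a kinase receptor for fibrillar collagen, rose at 0.49 (SE 0.10, adjusted p = 0.000793), and Itga2, an integrin subunit, went from 11, 9 and 9 counts to 2, 0 and 3, at or under the floor and at least 4.04-fold lower. Of 6 collagen-cleaving proteases 1 was higher and 4 lower after CrOE EVs. The largest fall was that of Mmp8, the neutrophil collagenase, from 38, 52 and 32 counts to 1, 3 and 0, at or under the floor and lower by at least 17.1-fold. All 6 were lower in CrOE EV against shCon EV cells, where 36.1% of all genes were lower. Mmp13, a collagenase, was at 16.8, 14.1 and 14.6 CPM in untreated, 76.8, 71.2 and 70.8 in shCon EV, 56.3, 42.5 and 38.4 in shCr EV and 58.1, 64.6 and 53.5 in CrOE EV libraries. It was called higher in all 3 EV groups, at 2.26 (SE 0.13, adjusted p = 6.39e-08) after shCon EVs, 1.59 (SE 0.13, adjusted p = 1.13e-06) after shCr EVs and 1.95 (SE 0.13, adjusted p = 1.91e-08) after CrOE EVs.

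After shCon EVs 12 genes of the list were higher and 14 lower than in untreated cells, and after shCr EVs 10 were higher and 21 lower. The shares over all genes were 18% higher and 20.2% lower after shCon EVs, and 18.4% and 18.8% after shCr EVs. By step, the largest called changes after shCon EVs were those of Colgalt1 (galactosylation) at 0.24 (SE 0.07, adjusted p = 0.0163), Fkbp10 (a chaperone) at -0.35 (SE 0.04, adjusted p = 4.1e-05) and P4ha3 at -1.29 (SE 0.10, adjusted p = 8.52e-07). Outside the cell they were Adamts3 (N-propeptide removal) at -1.20 (SE 0.19, adjusted p = 0.000285), Lox at 0.32 (SE 0.05, adjusted p = 0.000478) and Loxl4 at -0.68 (SE 0.05, adjusted p = 1.05e-06). The integrin receptor subunits Itga10 and Itga1 were at 1.28 (SE 0.16, adjusted p = 4.77e-05) and -0.97 (SE 0.15, adjusted p = 0.000238).

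After shCr EVs the largest called changes by step were P4ha3 at -2.56 (SE 0.11, adjusted p = 5.1e-09), Creb3l1 at 0.66 (SE 0.08, adjusted p = 1.95e-05) and Fkbp10 at -0.68 (SE 0.04, adjusted p = 1.28e-07). For propeptide removal they were Adamts14 at 0.76 (SE 0.17, adjusted p = 0.00324) and Adamts3 at -1.28 (SE 0.19, adjusted p = 0.000152), and for cross-linking Loxl4 at -1.16 (SE 0.06, adjusted p = 1.07e-08). Among receptors they were Itga10 at 1.32 (SE 0.16, adjusted p = 3.27e-05) and Itga1 at -0.50 (SE 0.14, adjusted p = 0.0148), and among proteases Ctsk, cathepsin K, at 2.01 (SE 0.12, adjusted p = 6.13e-08) and Mmp9, a gelatinase, at -0.43 (SE 0.12, adjusted p = 0.0102).

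In shCr EV against shCon EV cells 2 genes of the list were higher and 10 lower, where 5.22% of all genes were higher and 3.51% lower. Fkbp10 was at -0.33 (SE 0.04, adjusted p = 0.000535) and Mmp13 at -0.68 (SE 0.12, adjusted p = 0.00417). Lox, the main cross-linking oxidase, was at 2768, 2632 and 2577 CPM after shCon EVs and 1927, 1763 and 1845 after shCr EVs, at -0.53 (SE 0.05, adjusted p = 7.57e-05). P4ha3 had the largest called fall of its list, at -1.27 (SE 0.11, adjusted p = 2.49e-05), and Adamts14, an N-propeptide protease, the largest called rise of its list, at 0.75 (SE 0.17, adjusted p = 0.0156). In CrOE EV against shCon EV cells 12 were higher and 33 lower, beside 36.5% and 36.1% of all genes. The largest called changes by step were Ppib at 1.69 (SE 0.08, adjusted p = 6.51e-10), P4ha3 at -1.69 (SE 0.12, adjusted p = 2.77e-08), Sec24d, a vesicle coat subunit, at 1.10 (SE 0.05, adjusted p = 8e-10) and Creb3l1 at -1.77 (SE 0.08, adjusted p = 3.34e-10). Further ones were Pcolce at -2.93 (SE 0.05, adjusted p = 1.64e-13), Loxl4 at 0.26 (SE 0.05, adjusted p = 0.000881), Loxl3 at -2.62 (SE 0.08, adjusted p = 1.04e-11), Ddr2 at 0.60 (SE 0.10, adjusted p = 0.000186) and Mrc2, an endocytic collagen receptor, at -3.25 (SE 0.08, adjusted p = 1.37e-12). Mmp8 was lower by at least 20.3-fold.

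In CrOE EV against shCr EV cells 15 were higher and 29 lower, beside 36.9% and 37% of all genes. The largest called changes were Ppib at 1.64 (SE 0.08, adjusted p = 7.31e-10), P3h4, a partner of the hydroxylases, at -1.39 (SE 0.08, adjusted p = 2.17e-09), Sec24d at 1.26 (SE 0.05, adjusted p = 1.85e-10) and Creb3l1 at -1.5 (SE 0.08, adjusted p = 1.37e-09). Further ones were Pcolce at -3.02 (SE 0.05, adjusted p = 1.02e-13), Loxl4 at 0.74 (SE 0.06, adjusted p = 5.55e-08), Loxl2 at -2.84 (SE 0.19, adjusted p = 2.23e-08), Ddr2 at 0.51 (SE 0.10, adjusted p = 0.000655), Mrc2 at -3.18 (SE 0.07, adjusted p = 1.25e-12) and Mmp13 at 0.36 (SE 0.12, adjusted p = 0.0155). Mmp8 was lower by at least 20.2-fold.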

How the data were processed

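Bulk RNA of 12 3T3 libraries was sequenced after poly(A) selection with a directional kit, per the labels' protocols. The authors deposited estimated counts, with 1 value for each gene symbol and library. The unit was read from the values, of which 39.8% were not whole, and from column totals that differed. The submitters' processing notes name featureCounts and the mm39 build, without a version or role. Use of read strand in counting is not given in the sources used here, and no gene coordinates in mm39 are printed.

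Counts were rounded, genes filtered with filterByExpr, libraries scaled by TMM and tested with edgeR 4.0.16 (R 4.3.3), glmQLFit and glmQLFTest, in a model of 4 group means over all 12 libraries with 8 residual degrees of freedom. The Benjamini-Hochberg adjustment ran over 14279 genes. Standard errors came from the F statistic. Comparisons that share a group share its libraries. Total counts were 25960054 to 27189953 in untreated, 27811383 to 30177901 in shCon EV, 28734910 to 37774020 in shCr EV and 31389839 to 35490290 in CrOE EV libraries, and the biological coefficient of variation was 8.90%. PCR copies were not separated from molecules, so floors cover counting error only.

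Transcript length, GC content and antisense overlaps came from GENCODE M21, with the longest protein-coding transcript as length, and promoter windows from RefSeq. On simulated counts edgeR recovered 178 of 200 genes changed 2-fold in shCon EV against untreated cells, with 10 false calls among 14020 genes. The simulated spread depended on expression level alone, and far fewer genes changed than the 38.1% called in that comparison here. The simulation therefore does not give the error rate of these data.

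In the fibrillar, basement membrane, FACIT and microfibrillar classes the 3 members of highest mean CPM are given in full. So are Col23a1, Col8a1, Col18a1 and Col7a1 of the other classes. The largest called rise and fall of each comparison (average log2 CPM 0 or more) are also given in full. Other members are given by ranges or for some groups, or, chosen after their values were seen, where a result turns on them. Of each pathway list the largest called rise and fall are named, with some others chosen after their values were seen. The collagen members, classes and lists were chosen with earlier results of these data known. Alternatives were DESeq2 1.42.0, size factors by median of ratios, no filter, at least 10 counts per library, a replicate block, each replicate left out, a 2-group model, and, added after seeing the data, the low-mitochondrial libraries left out.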

Additional observations from a re-analysis of the deposited data

How the results depend on the processing

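Counts of called collagen members stayed within 1.5 times the reported ones under every alternative run. The shares over all genes were not taken under any alternative, so these counts cannot be set beside the movement of the whole table. Leaving out each replicate in turn gave 11 to 20 calls in shCon EV against untreated (14 with all libraries), 11 to 17 in shCr EV against untreated (12), 26 to 28 in CrOE EV against untreated (27) and 6 to 12 in shCr EV against shCon EV (9). It gave 29 to 34 in CrOE EV against shCon EV (33), 26 to 31 in CrOE EV against shCr EV (30) and 29 to 33 among the 4 groups (32). With the untreated, shCr EV and CrOE EV libraries of lowest mitochondrial share left out together, added after seeing the data, the counts were 15, 14, 28, 13, 31, 31 and 31 in that order. Among single genes, 19 pairs of gene and comparison lost a call and 29 gained one under at least 1 alternative. Col20a1 in shCr EV against shCon EV, never called with all libraries, turned from 0.21 to -0.057 without shCr EV replicate 3, and leaving out other shCr EV libraries gave up to 0.49. A further 26 pairs that were called under no setting changed sign, and only levels are given for them. Called pathway genes in shCr EV against shCon EV went from 12 to 7 without shCon EV replicate 2 or 3 and to 6 in a model of only these groups; fewer libraries entered each of these fits. Depth limits the scarcest members: Col8a2 rested on 1 to 20 counts per library.

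Replicate numbers did not pair the libraries. Deviations of same-numbered libraries from their group means correlated at -0.20 to 0.32, 5 of 18 pairs were over 0.1, and the best match had the same number in 12 of 36 cases. With the replicate number as a block, calls were 15, 15 and 28 in shCon EV, shCr EV and CrOE EV against untreated, 9 in shCr EV against shCon EV, 32 in CrOE EV against shCon EV, 29 in CrOE EV against shCr EV and 31 among the 4 groups. The block ended the call of Col27a1 in CrOE EV against shCr EV (adjusted p = 0.0502) and gave one to Col6a1 in shCon EV against untreated (0.0287) and to Col4a4 in CrOE EV against shCon EV (0.0455), among other single genes.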

Other observations

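In each of the 4 groups, 7 of the 36 tested members had their lowest level, alone or tied, in the library with the lowest mitochondrial share, beside 5.93% of all tested genes (847). A tie was given to the first library in order, for members and all genes alike. They were Col5a3, Col6a1, Col7a1, Col10a1, Col11a2, Col16a1 and Col20a1, with transcript GC contents of 50.5% to 62.9%, where the median over the tested members was 55.9%. Col10a1, with the GC content of 50.5%, was tied in CrOE EV replicates 2 and 3 and was counted only by their order. The cause was not tested.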
